A study of Mus musculus with 16 samples.

Results

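The genes described here are 176 of the 24421 gene rows of the series: the members of 12 families of developmental transcription factors, with the antisense rows that carry their names. They were chosen by symbol alone, as every row starting with Hoxa, Hoxb, Hoxc, Hoxd, Pax, Pou, Lhx, Nkx, Cdx, Irx, Dlx, Tbx or Gata and a digit, with the stem of the Six3 family and a digit, or with Fox, a letter and a digit. The rule leaves out 8 genes of these families (Pax7, Pou4f1, Cdx2, Foxf1, Foxp1, Foxp2, Foxp4 and Lhx8), and 5 of those 8 were called, all of them higher, in Con+Foxp2 against Con+Con mice, so the counts of called members given here are counts after that removal. Of the 176 rows, 14 are antisense or opposite strand transcripts, and Pou2af1 is a coactivator that binds POU factors and is not itself a POU factor.

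RNA was taken from the striatum of mice harvested at 13 months, 4 mice in each of 4 groups that combine a genotype with an injected virus. BACHD+Foxp2 mice carry the BACHD transgene, a bacterial artificial chromosome with the mutant human huntingtin gene used as a model of Huntington disease, and received the virus with Foxp2. BACHD+Con mice have the same genotype and received the control virus. Con+Foxp2 mice are control mice given the Foxp2 virus, and Con+Con mice are control mice given the control virus. All 16 mice received a virus, so there is no uninjected group. The labels name neither the type of virus, its promoter and target cells, the time after injection nor the mouse strain.

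These families pattern the embryo. Hox genes, which lie in clusters, give cells their position along the body axis and are normally kept off in the forebrain, while Dlx, Six3 and Lhx6 belong to the programme that builds the ventral forebrain and the striatum. Other members direct organs or cells far from the brain, such as Gata4 and Nkx2-5 in the heart, Foxl2 in the ovary and Pou4f2 in retinal ganglion cells, and in most adult tissues such genes are held silent by repressive chromatin of the Polycomb type.

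Libraries held 2660395 to 3669748 reads assigned to genes, at which 3 reads of a gene correspond to 0.818 to 1.13 CPM, counts scaled to a common library size. Foxp2 itself checked the virus labels: it averaged 4015 ± 431 CPM in Con+Foxp2 mice and 118 ± 26.7 CPM in Con+Con mice, and 1595 ± 288 CPM in BACHD+Foxp2 mice and 119 ± 28.6 CPM in BACHD+Con mice (SD, n = 4 each). No BACHD+Foxp2 mouse exceeded 1929 CPM and no Con+Foxp2 mouse was under 3500 CPM, so genotype and level of delivered Foxp2 cannot be told apart where the effect of the virus differs between genotypes. The markers of striatal projection neurons were present in every group, with 12 of 12 detected. Con+Foxp2 mouse 2 stood apart in markers of septal, pallidal and thalamic neurons (787 CPM over 8 genes, against 206 to 612 CPM in the 15 other libraries), and Con+Con mouse 3 in markers of cortical excitatory neurons (1330 CPM over 9 genes, the highest of the 16).

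Most of these genes were silent or nearly so in adult striatum. Of the 176 members, 42 (23.9%) had no read in any of the 16 libraries, against 17.8% of all gene rows, and 49 others had 1 to 9 reads in all. A further 39 members had 10 to 99 reads and 46 had 100 or more. All members together took 74098 reads, 0.152% of all gene reads, and the 10 members with most reads held 61.6% of them. Only 44 members (25% of them, against 55.5% of all gene rows) had enough reads for the test across genes. Over all members, tested or not, 40 had reads in all 16 libraries.

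The families differed in how silent they were. None of the 42 Hox rows reached 100 reads, 20 of them had no read at all, and the whole family had 102 reads in 16 libraries. Both Cdx rows, which belong to caudal patterning genes of the gut and tail, had no reads. The 42 Fox rows held 40187 reads (54.2% of member reads), 15 of them in the test, and the 15 Pou rows held 18316 reads, with 9 in the test. The 9 Dlx rows all had reads, 4820 in sum, and the 7 rows of the family of Six3 had 4579. Between these lay the Lhx family with 2598 reads, Nkx with 1427, Tbx with 788, Pax with 716, Gata with 302 and Irx with 263.

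**Figure D1:**
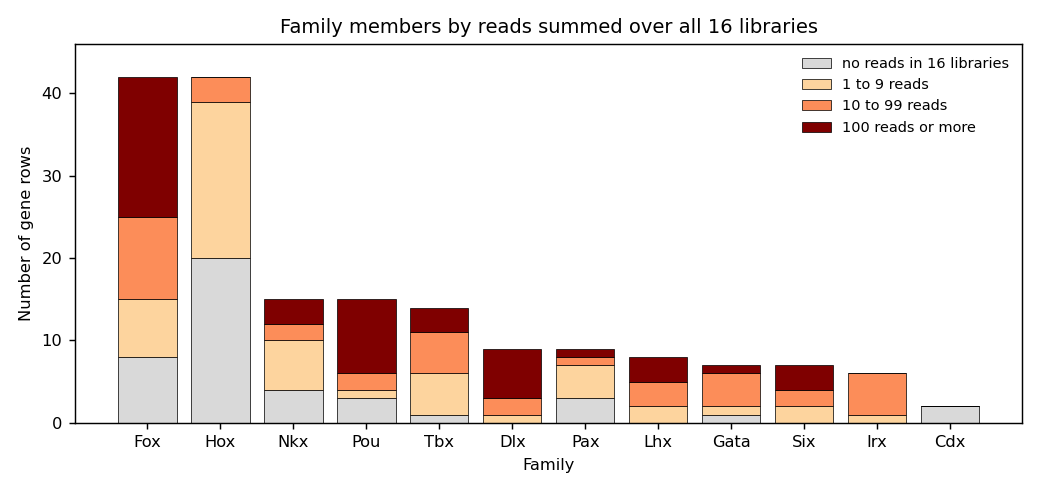
Number of gene rows per family (vertical axis) by the reads each row had summed over all 16 libraries (colours), for the 12 families on the horizontal axis. Of the 42 Hox rows 20 had no reads and 0 reached 100 reads, while 17 of the 42 Fox rows had 100 reads or more.

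In control mice more of these genes had reads with the Foxp2 virus. Con+Foxp2 libraries had reads of 76, 87, 82 and 79 members, against 73, 70, 63 and 64 members in Con+Con libraries. The 2 groups did not overlap. Over all gene rows they did, with reads of 16337, 16438, 16130 and 16571 genes in Con+Foxp2 libraries and of 16580, 16160, 15944 and 15620 genes in Con+Con libraries. With every library brought to the depth of the smallest by the expected count under thinning, the means were 79.1 ± 4.74 members in Con+Foxp2 and 66.4 ± 4.09 members in Con+Con (SD, n = 4 each), a difference of 12.7 members. In BACHD mice the same counts overlapped, with 66, 69, 58 and 65 members in BACHD+Foxp2 libraries and 69, 62, 59 and 64 members in BACHD+Con libraries, a difference of 0.869 members at equal depth. When a member had to have 3 reads in place of 1, the difference in control mice was 4.26 members and the groups overlapped, with 57, 65, 60 and 64 members in Con+Foxp2 libraries and 60, 53, 56 and 52 members in Con+Con libraries. These are descriptions with no test, and the difference between the genotypes was not tested.

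The same count was made over members chosen on other mice. In BACHD+Con mice 110 members were silent, meaning that they had at most 3 reads over the 4 libraries. Of those 110, the Con+Foxp2 libraries had reads of 21, 28, 25 and 22, against 14, 14, 6 and 8 in Con+Con libraries, which again did not overlap. BACHD+Foxp2 libraries had reads of 14, 14, 8 and 10 of them, within the range of Con+Con. Over all 7966 gene rows silent in BACHD+Con mice, the share with reads was 10.6% to 12.7% in Con+Foxp2 libraries and 7.85% to 11.98% in Con+Con libraries, and these ranges overlapped.

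**Figure D2:**
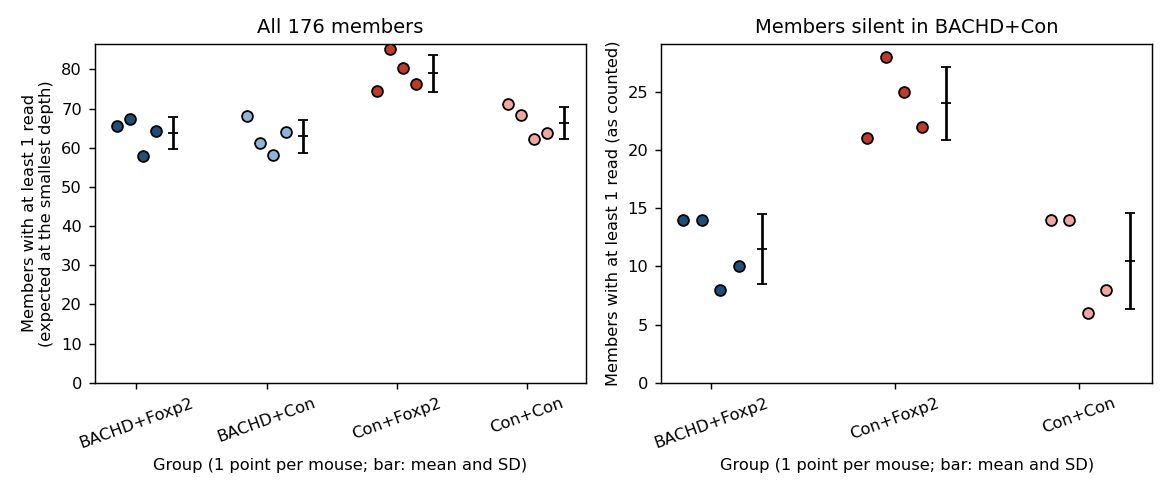
Left, members with at least 1 read in each library after thinning to the smallest depth; right, members with reads among the 110 that were silent in BACHD+Con mice, as counted (points are mice, bars the mean and SD of 4). In both panels the 4 Con+Foxp2 mice lie above the 4 Con+Con mice, from 74.4 to 85.1 against 62.3 to 71.2 on the left and from 21 to 28 against 6 to 14 on the right, while BACHD+Foxp2 mice overlap with BACHD+Con mice on the left.

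A rule for single genes was then applied: at most 3 reads over the 4 libraries of the control virus group, and at least 10 reads, in at least 3 of 4 libraries, in the Foxp2 virus group. In control mice 8 of the 105 members silent in Con+Con met it (7.62%), beside a background of 2.33% (180 of 7730) over all silent gene rows. In the opposite direction, silent with the Foxp2 virus and with reads under the control virus, 0 of 91 members met it, beside 1.22% of all gene rows. In BACHD mice 1 of 110 silent members gained reads (0.909%, beside a background of 1.81%) and 1 of 106 lost them (0.943%, beside 1.61%). Between the genotypes under the control virus 0 of 105 members met the rule with reads in BACHD+Con and silence in Con+Con, and 0 of 110 in the opposite direction, beside 0.996% and 1.74% of all gene rows. A set of other developmental families with 69 rows (Sox, Zic, Neurod, Otx and others) had no row without reads. In that set 3 of 23 silent rows gained reads with the virus in control mice and 2 of 21 in BACHD mice. In the opposite direction 0 of 16 and 0 of 19 met the rule. Between the genotypes under the control virus, 3 of the 21 rows silent in BACHD+Con had reads in Con+Con. With reads in BACHD+Con and silence in Con+Con there were 0 of 23. No member met the rule in both genotypes. Of the 8 genes that the selection leaves out, 2 of the 2 silent in Con+Con gained reads in control mice. In BACHD mice 3 of the 3 silent in BACHD+Con did. The counts of gaining members are therefore counts after that removal.

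Among the 8 genes were the neighbours Hoxc4 and Hoxc6, homeobox genes of the HoxC cluster that act in the neck and trunk of the embryo. Hoxc4 had 2, 4, 13 and 5 reads in the Con+Foxp2 mice and 0 in each Con+Con mouse, at least 7.66-fold higher when the Con+Con group is set at its floor of 3 reads over the group. Hoxc6 had 5, 3, 7 and 1 reads in Con+Foxp2 and 0 in each Con+Con mouse, at least 5.11-fold higher by the same floor. Every Con+Foxp2 mouse thus had reads of both genes and no Con+Con mouse had any. In BACHD+Foxp2 mice Hoxc4 had 1 read in mouse 2 and Hoxc6 had none, and neither gene had a read in BACHD+Con mice.

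Hoxc5, which lies between them, fell just short of the rule with 2, 3, 1 and 1 reads in Con+Foxp2 mice and 0 in the 12 other libraries. On chromosome 15 of GRCm38, in RefSeq coordinates, Hoxc6 spans 102998226 to 103011882, Hoxc5 103014008 to 103017429 and Hoxc4 103018097 to 103036856, so that 2125 and 667 bases separate them. The next gene, Hoxc8, ends 3950 bases before Hoxc6 and had 0 reads in Con+Foxp2 mice, 4 reads in 1 BACHD+Foxp2 mouse and 1 read each in BACHD+Con and Con+Con. Hoxc9, Hoxc11 and Hoxc12 had no reads in any library. Summed over the cluster, 48 of the 59 HoxC reads were in Con+Foxp2 mice, with 3 in Con+Con, 6 in BACHD+Foxp2 and 2 in BACHD+Con. Of the 48 reads, 24 were of Hoxc4, 16 of Hoxc6 and 7 of Hoxc5. These genes were named for those reads, so the sum restates them and adds no support. Of the other HoxC genes, Hoxc13 had 1 read in Con+Foxp2 mice and Hoxc10 had 2 in Con+Con mice. The HoxA, HoxB and HoxD clusters had 5, 3 and 2 reads in Con+Foxp2 mice, against 0, 8 and 4 in Con+Con mice. The clusters were not compared by a test. In the GENCODE M21 annotation the exons of Hoxc6 and Hoxc4 overlap 0 other genes on the same strand. Those of Hoxc5 overlap Hoxc10, which had 0 reads in Con+Foxp2 mice. Counts per gene name do not tell which transcript the reads came from.

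**Figure D3:**
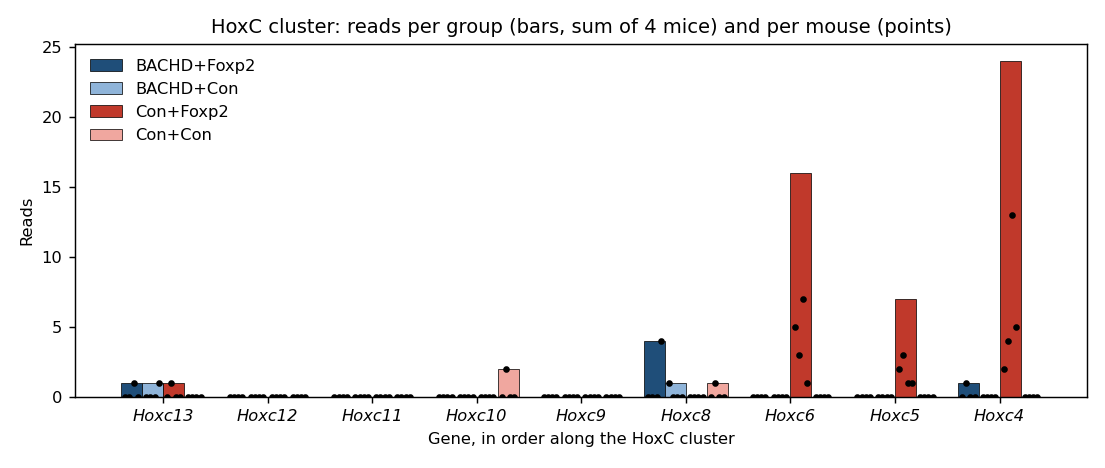
Reads of the 9 HoxC genes, in their order along the cluster (horizontal axis), as the sum over the 4 mice of a group (bars) and per mouse (points). Con+Foxp2 mice have 16, 7 and 24 reads of Hoxc6, Hoxc5 and Hoxc4, where Con+Con mice have 0 of each.

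Outside the HoxC cluster 6 members gained reads in control mice. Pou4f2, a POU factor of retinal ganglion cells, had 1, 4, 1 and 9 reads in Con+Foxp2 and 0 in each Con+Con mouse (at least 4.79-fold higher). In BACHD mice Pou4f2 did not separate the viruses, with 0, 3, 5 and 6 reads in BACHD+Foxp2 and 8, 0, 0 and 0 reads in BACHD+Con. Foxl1, a forkhead gene of the gut mesenchyme, had 5, 7, 0 and 1 reads in Con+Foxp2 and 0 in each Con+Con mouse (at least 4.15-fold higher). Its neighbour Foxc2, a forkhead gene of lymphatic vessels and mesenchyme that lies 8789 bases away on chromosome 8, had 4, 1, 7 and 0 reads in Con+Foxp2 and 1, 1, 0 and 0 reads in Con+Con. That is a ratio of 5.75 with an exact 95% counting interval of 1.28 to 52.9, and in BACHD mice Foxc2 had 0 reads in BACHD+Foxp2 and 4 reads in BACHD+Con.

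The other 3 had some reads in Con+Con mice as well. Pou2af1, the coactivator of octamer-binding factors in B cells, had 1, 1, 9 and 3 reads in Con+Foxp2 and 0, 2, 0 and 0 reads in Con+Con (ratio 6.70, interval 1.54 to 60.8). Gata3, a zinc finger factor of T cells and of some neurons, had 0, 9, 1 and 4 reads in Con+Foxp2 and 2, 0, 0 and 1 reads in Con+Con (ratio 4.47, interval 1.25 to 24.3). Foxl2, the forkhead gene of the ovary, had 4, 2, 3 and 1 reads in Con+Foxp2 and 2, 0, 0 and 1 reads in Con+Con, and its interval included 1 (ratio 3.19, 0.822 to 18). The genes were chosen on these same reads, so the ratios, bounds and intervals are descriptions and an interval above 1 supports nothing. They cover counting error only and not the differences between mice. Nkx2-5, a homeobox gene of the heart that fell short of the rule, had 2, 2, 1 and 2 reads in Con+Foxp2 mice and 0 in the 12 other libraries.

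**Figure D4:**
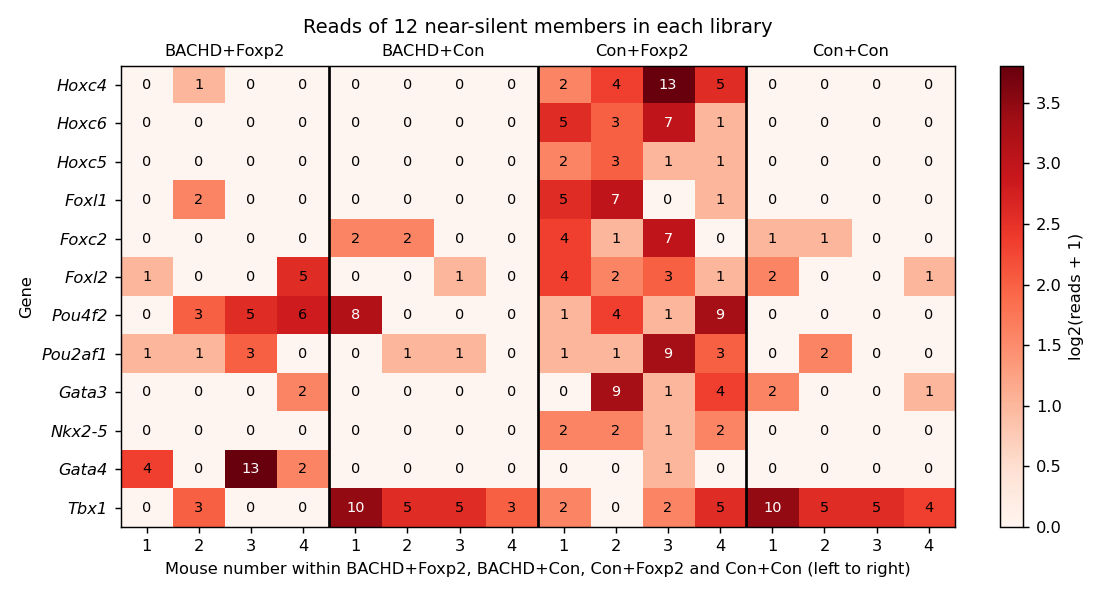
Reads of 12 near-silent members (rows) in each of the 16 libraries (columns, grouped), with the colour on a log2(reads + 1) scale and the count printed in each cell. The upper rows hold reads mainly in the 4 Con+Foxp2 columns, with 24, 16 and 7 reads of Hoxc4, Hoxc6 and Hoxc5, and Gata4 holds 13 of its 20 reads in BACHD+Foxp2 mouse 3.

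In BACHD mice Gata4, a heart and gonad factor, was the member that gained reads, with 4, 0, 13 and 2 reads in BACHD+Foxp2 and 0 in each BACHD+Con mouse (at least 6.16-fold higher). Most of these reads came from mouse 3, and without it Gata4 did not meet the rule. In that mouse 11 choroid plexus and ependymal markers summed to 5053 CPM and 7 meningeal and fibroblast markers to 340 CPM. Both were the highest sums of its group. BACHD+Con mouse 2, with no Gata4 read, had 10750 and 629 CPM. The part of such cells in the Gata4 reads was not tested. Tbx1, a T-box gene of the pharyngeal arches, met the rule in the opposite direction, with 0, 3, 0 and 0 reads in BACHD+Foxp2 and 10, 5, 5 and 3 reads in BACHD+Con. In control mice Tbx1 had 2, 0, 2 and 5 reads in Con+Foxp2 and 10, 5, 5 and 4 reads in Con+Con. These counts overlapped, but levels scaled for depth did not, at 0 to 1.37 CPM in Con+Foxp2 and 1.49 to 2.95 CPM in Con+Con mice. Tbx1 was not called there (edgeR adjusted p = 0.82 without the filter on low counts).

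None of these genes passed a test across genes. In an edgeR fit without the filter on low counts (20069 genes), the virus comparison in control mice gave Hoxc4 an adjusted p of 0.367, Hoxc6 an adjusted p of 0.523 and Pou4f2 an adjusted p of 0.539. Foxl1 had adjusted p = 0.616 in that fit, Hoxc5 0.753 and Nkx2-5 0.755. The 4 remaining gaining genes had adjusted p of 0.800 (Pou2af1), 0.809 (Foxc2), 0.837 (Gata3) and 0.851 (Foxl2). In BACHD mice Gata4 had adjusted p = 0.496 and Tbx1 0.651. Hoxc4 and Hoxc6 met the rule for gaining reads whichever of the 8 libraries was removed, where reads were scaled to 4 libraries and had to occur in 2 of 3. Pou4f2 did not meet it without Con+Foxp2 mouse 4, Foxl1 without mouse 2, and Foxc2 and Pou2af1 without mouse 3. Gata3 met it in 5 of these 8 runs and Foxl2 in 4.

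The promoters of the gaining genes are shown as a description. These genes lie on 4 chromosomes and were chosen for having more reads in Con+Foxp2 mice, and a shared regulation was not tested. RefSeq starts on GRCm38.p6 (250 bases before to 50 after the start) were found for 117 of the 176 members and for 5 of the 8 gaining genes, at chr15:103034145-103034444 on the plus strand, chr8:78436598-78436897 on the minus strand, chr2:9878551-9878850 on the minus strand, chr9:98955357-98955656 on the plus strand and chr9:51213440-51213739 on the plus strand. For Hoxc4 and Gata3 the start in the table lies inside the gene's RefSeq span and not at its 5′ end, so these windows show an internal start. For Pou4f2, Foxl2 and Pou2af1 it is the 5′ end of the span. The sequences run 5′ to 3′ on the gene's strand, and capitals mark each CG dinucleotide, the site of DNA methylation and of CpG islands.
Hoxc4: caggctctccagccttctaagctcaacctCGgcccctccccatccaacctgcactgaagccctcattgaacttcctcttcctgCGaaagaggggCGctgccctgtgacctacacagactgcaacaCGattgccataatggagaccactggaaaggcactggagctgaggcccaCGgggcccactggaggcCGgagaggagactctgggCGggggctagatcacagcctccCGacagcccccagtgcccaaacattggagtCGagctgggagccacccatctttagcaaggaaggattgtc
Pou4f2: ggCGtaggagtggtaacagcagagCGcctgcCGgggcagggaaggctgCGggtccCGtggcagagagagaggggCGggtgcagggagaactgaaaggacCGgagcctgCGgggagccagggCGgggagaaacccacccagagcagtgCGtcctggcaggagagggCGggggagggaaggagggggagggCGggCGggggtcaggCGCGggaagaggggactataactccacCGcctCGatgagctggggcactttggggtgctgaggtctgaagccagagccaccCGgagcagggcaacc
Gata3: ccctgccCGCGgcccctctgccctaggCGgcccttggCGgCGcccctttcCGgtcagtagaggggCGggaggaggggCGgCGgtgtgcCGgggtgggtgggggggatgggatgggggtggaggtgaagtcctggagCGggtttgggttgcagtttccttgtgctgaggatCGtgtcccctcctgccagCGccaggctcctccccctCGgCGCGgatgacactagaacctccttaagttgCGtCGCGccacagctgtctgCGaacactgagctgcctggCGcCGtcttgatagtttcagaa
Foxl2: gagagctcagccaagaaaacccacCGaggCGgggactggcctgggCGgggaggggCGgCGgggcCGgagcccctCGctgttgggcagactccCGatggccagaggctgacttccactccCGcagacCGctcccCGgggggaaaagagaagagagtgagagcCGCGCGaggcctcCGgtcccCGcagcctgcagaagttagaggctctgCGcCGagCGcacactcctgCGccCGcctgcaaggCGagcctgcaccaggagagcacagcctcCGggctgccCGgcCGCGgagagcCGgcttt
Pou2af1: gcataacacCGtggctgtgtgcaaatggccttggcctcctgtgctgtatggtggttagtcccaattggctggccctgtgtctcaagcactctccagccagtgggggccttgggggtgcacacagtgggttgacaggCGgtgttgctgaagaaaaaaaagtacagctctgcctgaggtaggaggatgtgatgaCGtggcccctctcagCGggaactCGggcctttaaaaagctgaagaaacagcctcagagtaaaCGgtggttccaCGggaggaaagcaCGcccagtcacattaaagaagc

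Foxl2 held 27 CG dinucleotides in this window, Gata3 22 and Pou4f2 18, while Hoxc4 held 9 and Pou2af1 8. The median was 6 per 100 bases over these 5 promoters, 5.33 over the 139 promoters of the 117 matched members and 2.33 over all 32841 promoters. Members with no reads in any library had a median of 4.67 and members with reads in all 16 libraries 6, beside wide ranges in both sets. The letters TGTTTAC, typical of forkhead binding sites, were found on either strand in 2 of the 139 members' promoters (1.44%), against 3.65% of all promoters. TATTTAT was found in 6 of them (4.32%), against 5.59%. The median share of G and C was 60% in the members' promoters and 52.7% in all, and its part in these shares was not tested. The last letter of TATTTAT can also be the first of TGTTTAC. None of the 5 promoters shown held either motif, which says only that these letters are not in these windows.

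Some other members with few reads had most of them in 1 library. Con+Foxp2 mouse 2 held 69 of the 143 reads of Lhx9, a LIM homeobox gene of the thalamus and habenula, 38 of the 55 reads of Irx2 and 31 of the 84 reads of Irx1, both Iroquois genes. This is the library with the highest septal, pallidal and thalamic marker sum (787 CPM), and their part in its Lhx9 and Irx reads was not tested. The Irx family had 133 reads in Con+Foxp2 and 74 in Con+Con mice, with 88 of the 133 in mouse 2. Gata3 had 9 of its 14 Con+Foxp2 reads in the same mouse, and without that mouse Gata3 and Foxl1 did not meet the rule. Hoxc4 and Hoxc6 had their highest counts in mouse 3 and Pou4f2 in mouse 4. Those mice had choroid plexus and ependymal marker sums of 3063 and 2765 CPM, against 241 and 388 CPM in mice 1 and 2. Their sums of 7 meningeal and fibroblast markers were 286 and 200 CPM, against 52.5 and 77.9 CPM. Con+Con mice, without reads of these genes, ranged from 253 to 7560 CPM and from 102 to 490 CPM. The part of these cells in the reads was not tested.

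Several forkhead genes were well expressed. Per kilobase of exon, the broadly expressed Foxk2, Foxk1 and Foxj2 had mean levels of 17.4, 14.2 and 14.0 CPM per kb. In CPM, Foxk2 averaged 89.8 ± 13.8 in Con+Foxp2 and 90.4 ± 16.2 in Con+Con mice, and 93.1 ± 5.07 in BACHD+Foxp2 and 92.1 ± 10.9 in BACHD+Con mice (SD, n = 4 each). Of the POU genes, Pou3f3 and Pou6f1, both neuronal, had 13.8 and 12.8 CPM per kb, and Pou3f3 averaged 102 ± 11.9 CPM in Con+Foxp2 and 100 ± 19.9 CPM in Con+Con mice. The highest members of the other expressed families were Six3 (11.99 CPM per kb) and Six3os1 (2.06), Dlx5 (8.91) and Dlx6 (7.58), Nkx6-2 (8.53) and Nkx2-2 (2.26), Lhx2 (5.46) and Lhx6 (5.23), Pax6 (1.19) and Pax2 (0.0730), Tbx3 (1.001) and Tbx6 (0.937), and Gata2 (0.923) and Gata4 (0.111). Irx1 (0.651), Irx3 (0.496), Hoxc4 (0.194) and Hoxc6 (0.135) were the highest of families with no tested member. The 4 groups overlapped for Foxk2, Pou3f3 and Pou6f1.

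None of the 44 tested members was called in any of 7 contrasts (edgeR's quasi-likelihood test, adjusted p under 0.05 by Benjamini-Hochberg over 13563 genes), and DESeq2 called 0 members as well. The share of all tested genes called was 0.229% for the virus in control mice, 0.243% for the virus in BACHD mice, 1.05% for the virus averaged over genotypes, 0.0147% for the genotype under the control virus, 0.059% for the genotype under the Foxp2 virus, 0.0369% for the genotype averaged over viruses and 0% for the interaction. At such shares fewer than 1 call would fall among 44 genes, so 0 calls say little about the members. By direction, the share called higher and lower was 0.14% and 0.0885% for the virus in control mice, 0.0885% and 0.155% in BACHD mice and 0.42% and 0.634% averaged, 0.0147% and 0% for the genotype under the control virus, 0.00737% and 0.0516% under the Foxp2 virus and 0.0147% and 0.0221% averaged. At an unadjusted p under 0.05, 1, 3 and 4 of the 44 members lay below the threshold in the 3 virus contrasts, in that order, beside 7.04%, 7.73% and 10.8% of all genes, and 2, 0 and 2 in the 3 genotype contrasts, beside 3.44%, 4.18% and 4.05%. The interaction had 0 of 44, beside 3.8% of all genes. The median log2 fold change of the tested members was -0.09 in control mice and -0.08 in BACHD mice for the virus, beside 0.00 over all tested genes. The authors' deposited tables also listed 0 members at an adjusted p under 0.05, among the 54 with a value for Con+Foxp2 against Con+Con, the 38 for BACHD+Foxp2 against BACHD+Con and the 105 for BACHD+Con against Con+Con.

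The lowest p among members belonged to Six3, a homeobox gene needed for striatal projection neurons of the indirect pathway. Six3 had 49.9, 69.7, 39.4 and 38.8 CPM in Con+Foxp2 mice, against 94.4, 102, 37.0 and 117 CPM in Con+Con mice. Of the Con+Con mice, 3 lay above all Con+Foxp2 mice and mouse 3 lay below them all. The log2 fold change was -0.83 (SE 0.26, edgeR adjusted p = 0.307). In BACHD mice it had 71.0, 50.4, 55.7 and 61.2 CPM with the Foxp2 virus, against 67.7, 72.7, 72.5 and 45.5 CPM with the control virus, and these overlapped. Averaged over genotypes the log2 fold change of Six3 was -0.47 (adjusted p = 0.314), and the interaction was 0.71 (adjusted p = 1.00).

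Con+Con mouse 3 decided this result. Without it the log2 fold change of Six3 in control mice was -1.08 with an edgeR adjusted p of 0.0135, and the averaged value -0.60 with 0.0263. The same mouse had the lowest projection neuron marker sum of its group: the sums were 4768, 4789, 3820 and 4117 CPM in Con+Foxp2 mice and 4382, 7890, 3853 and 7778 CPM in Con+Con mice, over 12 of 12 markers with none at 0 reads. The part of these cells in the Six3 value was not tested, and in bulk tissue fewer cells of a type and less RNA per cell cannot be told apart. The row Six3os1, an antisense transcript that overlaps Six3, had a log2 fold change of -0.21 (adjusted p = 0.937). No source names the strand setting of the counting, so reads of the overlap cannot be assigned with certainty.

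**Figure D5:**
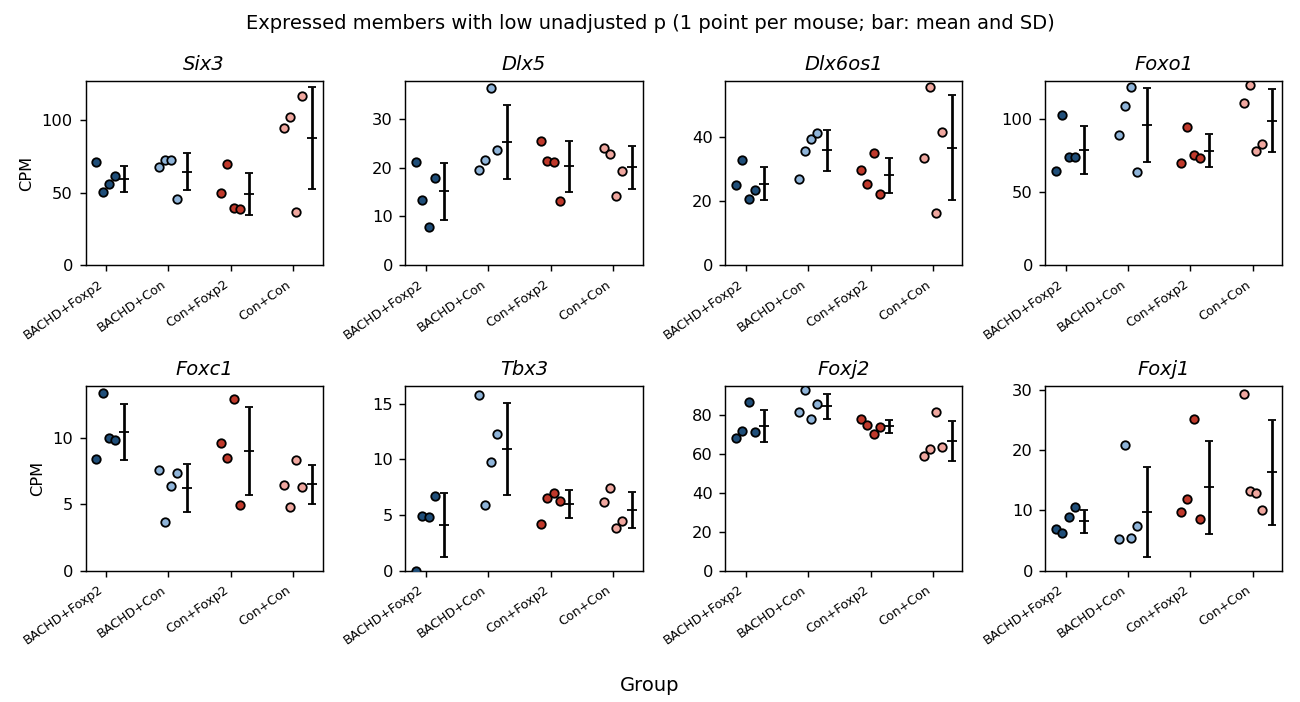
CPM of 8 expressed members with low unadjusted p in each mouse (points), with the mean and SD of each group of 4 (bars). For Six3 the 4 Con+Foxp2 mice lie between 38.8 and 69.7 CPM and 3 of 4 Con+Con mice lie above them, while Con+Con mouse 3 lies at 37.0 CPM.

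The Dlx genes, homeobox factors of GABAergic neurons, were not called, and their lowest p values came with lower levels under the Foxp2 virus. Dlx5 had 21.2, 13.4, 7.91 and 17.9 CPM in BACHD+Foxp2 mice, against 19.6, 21.5, 36.3 and 23.5 CPM in BACHD+Con mice (log2 fold change -0.74, SE 0.30, edgeR adjusted p = 0.537). Only BACHD+Foxp2 mouse 1 lay within the range of BACHD+Con. In control mice Dlx5 averaged 20.3 ± 5.16 CPM in Con+Foxp2 and 20.1 ± 4.40 CPM in Con+Con mice (log2 fold change 0.01). Dlx6os1, the noncoding transcript Evf2 of the Dlx5 and Dlx6 locus, averaged 27.9 ± 5.52 CPM in Con+Foxp2 and 36.6 ± 16.2 CPM in Con+Con mice, and 25.4 ± 5.20 CPM in BACHD+Foxp2 and 35.8 ± 6.39 CPM in BACHD+Con mice (averaged log2 fold change -0.44, SE 0.19, edgeR adjusted p = 0.390). Dlx1 and Dlx2 also did not pass, with log2 fold changes of 0.05 and -0.23 in control mice and -0.57 and -0.85 in BACHD mice. Dlx6 went the other way in control mice and was not called. It had 24.8, 19.0, 24.5 and 20.2 CPM in Con+Foxp2 mice, against 18.6, 19.3, 9.97 and 18.6 CPM in Con+Con mice. In BACHD mice Dlx6 had 15.3 to 18.9 CPM with the Foxp2 virus and 9.97 to 21.8 CPM with the control virus. These ranges overlapped in both genotypes.

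Lhx6, the LIM homeobox factor of Pvalb and Sst interneurons, had 18.7, 15.1, 17.6 and 20.7 CPM in Con+Foxp2 mice, against 25.1, 32.5, 25.1 and 21.6 CPM in Con+Con mice. These groups did not overlap, but Lhx6 was not called (log2 fold change -0.53, SE 0.27, edgeR adjusted p = 0.747). In BACHD mice Lhx6 averaged 26.3 ± 8.53 CPM with the Foxp2 virus and 30.2 ± 10.8 CPM with the control virus. The summed level of 8 of 8 interneuron markers was 250 to 333 CPM in Con+Foxp2 and 369 to 469 CPM in Con+Con mice, and 280 to 385 CPM in BACHD+Foxp2 and 358 to 426 CPM in BACHD+Con mice, with none at 0 reads, and its part in the Lhx6 value was not tested. Nkx2-1, which acts before Lhx6 in the same lineage, ranged from 1.64 to 3.54 CPM in Con+Foxp2 and from 0.964 to 12.6 CPM in Con+Con mice.

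Of the other forkhead genes, Foxo1, a target of insulin signalling, averaged 78.2 ± 11.1 CPM in Con+Foxp2 and 98.6 ± 21.6 CPM in Con+Con mice, and 78.6 ± 16.5 CPM in BACHD+Foxp2 and 95.6 ± 25.1 CPM in BACHD+Con mice (averaged log2 fold change -0.31, SE 0.14, edgeR adjusted p = 0.399). Its ranges overlapped in both genotypes. Foxc1, a factor of vessels and meninges, averaged 9.002 ± 3.31 CPM in Con+Foxp2 and 6.50 ± 1.45 CPM in Con+Con mice, and 10.4 ± 2.12 CPM in BACHD+Foxp2 and 6.22 ± 1.80 CPM in BACHD+Con mice (averaged log2 fold change 0.60, SE 0.27, edgeR adjusted p = 0.405). In BACHD mice its 2 groups did not overlap. Foxf2, a pericyte factor with too few reads for the filter, was lower in mean in both genotypes, with 1.14 ± 0.422 CPM in Con+Foxp2 and 2.79 ± 1.28 CPM in Con+Con mice, and 0.928 ± 0.305 CPM in BACHD+Foxp2 and 3.70 ± 2.33 CPM in BACHD+Con mice. In the fit without the filter its adjusted p was 0.809 in control and 0.653 in BACHD mice. Summed endothelial and mural markers, 8 of 8 detected, were 183 to 225 CPM in Con+Foxp2 and 209 to 245 CPM in Con+Con mice, and 206 to 262 CPM in BACHD+Foxp2 and 200 to 225 CPM in BACHD+Con mice.

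Tbx3 and Foxm1 completed the members below an unadjusted p of 0.05 for the virus in BACHD mice. Tbx3, a T-box repressor, averaged 4.11 ± 2.87 CPM in BACHD+Foxp2 and 10.96 ± 4.16 CPM in BACHD+Con mice (log2 fold change -1.39, SE 0.57, edgeR adjusted p = 0.545), and BACHD+Foxp2 mouse 1 had no read of it. Foxm1, a factor of dividing cells, averaged 6.06 ± 5.39 CPM in BACHD+Foxp2 and 1.86 ± 1.21 CPM in BACHD+Con mice (log2 fold change 1.68, SE 0.80, edgeR adjusted p = 0.636), with 13.5 CPM in BACHD+Foxp2 mouse 1. Tbx3 had 50 reads in BACHD+Foxp2 and 125 in BACHD+Con mice, and Foxm1 had 70 and 21. Both genes varied widely among mice of 1 group.

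Between the genotypes no member passed the test. Under the control virus Foxj2, a widely expressed forkhead gene, had 81.4, 93.1, 78.2 and 85.6 CPM in BACHD+Con mice, against 59.0, 62.7, 81.7 and 63.6 CPM in Con+Con mice (log2 fold change 0.34, SE 0.14, edgeR adjusted p = 1.00). Con+Con mouse 3 again lay within the range of the BACHD mice and the other 3 below it. Six4 (log2 fold change -2.33, SE 1.09, edgeR adjusted p = 1.00) rested on 8 reads in BACHD+Con and 45 reads in Con+Con mice. Foxn3, a forkhead repressor, averaged 37.8 ± 7.45 CPM in BACHD+Con and 49.1 ± 6.06 CPM in Con+Con mice (log2 fold change -0.38, adjusted p = 1.00).

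Averaged over viruses Pou3f1, a POU factor of cortex and myelinating glia, had a log2 fold change of 0.35 (SE 0.15, edgeR adjusted p = 0.999). It averaged 32.3 ± 6.64 CPM in BACHD+Foxp2 and 24.7 ± 2.06 CPM in Con+Foxp2 mice, and 37.9 ± 5.08 CPM in BACHD+Con and 30.7 ± 8.73 CPM in Con+Con mice, higher in mean in BACHD mice under both viruses. Foxj1, the master regulator of motile cilia in ependymal cells, had a log2 fold change of -0.75 (SE 0.32, edgeR adjusted p = 0.999). The highest Foxj1 levels were 20.8 CPM in BACHD+Con mouse 2, 25.2 CPM in Con+Foxp2 mouse 3 and 29.2 CPM in Con+Con mouse 1, where the sum of 11 of 11 choroid plexus and ependymal markers was 10750, 3063 and 7560 CPM in that order. The level did not follow that sum throughout: BACHD+Foxp2 mouse 3 had 8.95 CPM of Foxj1 with 5053 CPM of the markers, Con+Foxp2 mouse 4 had 8.46 with 2765, and Con+Con mouse 4 had 10.04 with 3360. Those markers ranged from 194 to 5053 CPM in BACHD+Foxp2 and 241 to 3063 CPM in Con+Foxp2 mice. They ranged from 124 to 10750 CPM in BACHD+Con and 253 to 7560 CPM in Con+Con mice, with none at 0 reads. The 4 ependymal cilia genes among them, a subset chosen after seeing the data, made up 24.8 of the 5053 CPM in BACHD+Foxp2 mouse 3. The subset sum was highest in BACHD+Con mouse 2 (48.2 CPM) and Con+Con mouse 1 (32.2 CPM). It was 21.9 CPM in Con+Foxp2 mouse 3, and 27.4 CPM in BACHD+Foxp2 mouse 1, which had 6.95 CPM of Foxj1. The part of either sum in Foxj1 was not tested.

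The genes with the lowest p in the remaining contrasts did not pass either. Under the Foxp2 virus, Nkx6-2, a factor of oligodendrocytes, averaged 20.5 ± 10.6 CPM in BACHD+Foxp2 and 13.3 ± 5.12 CPM in Con+Foxp2 mice (log2 fold change 0.62, edgeR adjusted p = 0.998), and Lhx6 had a log2 fold change of 0.54 (adjusted p = 0.998). For the interaction of genotype and virus, Nkx6-2 had a log2 difference of 0.99 (SE 0.48) and Foxo3, a stress-responsive forkhead gene, 0.47 (SE 0.24), both with an edgeR adjusted p of 1.00. Oligodendrocyte markers, 7 of 7 detected, ranged from 2773 to 7787 CPM in BACHD+Foxp2 and from 3973 to 6264 CPM in Con+Foxp2 mice.

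Proteins that work with these factors were counted from a list of 28 genes, of which 27 were in the tables and 26 were tested: the Hox cofactors of the Meis, Pbx and Pknox families, the LIM domain partners Ldb and Lmo, the Eya and Dach proteins that pair with Six3 and its relatives, and the Groucho corepressors Tle. None was called in any of the 7 contrasts by edgeR. The share of all tested genes called was at most 1.05%, so 0 calls among 26 genes say little. At an unadjusted p under 0.05 there were 2, 2 and 5 of 26 for the virus in control mice, in BACHD mice and averaged. The shares of all genes were 7.04%, 7.73% and 10.8%. For the genotype under the control virus, under the Foxp2 virus and averaged there were 2, 1 and 1, beside 3.44%, 4.18% and 4.05%. The interaction had 1, beside 3.8%. The Hox cofactors were expressed although the Hox genes were nearly silent, with a summed level over 9 genes of 700 to 803 CPM in Con+Foxp2 and 625 to 842 CPM in Con+Con mice, and 733 to 862 CPM in BACHD+Foxp2 and 722 to 844 CPM in BACHD+Con mice. These ranges overlapped in both genotypes.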

How the data were processed

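Striatal RNA of 16 mice was sequenced, 4 per group. Each mouse has a deposited file of raw counts by gene symbol, whole numbers with no scaling. Per the submitters' processing notes, the build was mm10 and the tools were HTSeq, DESeq2 and STAR 2.4.0; no strand setting is named. The 5 closing lines of each file, reads not assigned to a gene, were left out, and 22.5% to 24.7% of listed reads were in genes. Log2 fold changes and p-values from 3 comparison tables that the authors deposited are quoted only where named.

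The main test was edgeR 4.0.16 (quasi-likelihood F-test, two-sided, R 4.3.3) with TMM scaling, filterByExpr, a mean per group over all 16 libraries, 12 residual degrees of freedom and Benjamini-Hochberg adjustment over 13563 genes. DESeq2 1.42.0 was an alternative. Exon lengths are from GENCODE M21 and promoters from RefSeq, both on GRCm38, which is mm10. All 176 symbols were found in GENCODE. Of the members, 19 overlap an exon of another gene on the same strand and 54 on the opposite strand. The scripts were tested on simulated data. Of 120 pairs of libraries 0 were identical, and the lowest chi-square per degree of freedom was 4.34. The labels give 4 mice per group and no batch, and p-values measure the spread between these mice.

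Named are the 2 highest members per length in each family, each member that met the rule for gaining or losing reads, the 3 lowest p in each contrast and members of a panel with known roles in striatal or adjacent cells. Some genes chosen by this rule are not reported here. Hoxc5, Hoxc8, Nkx2-5, Lhx9 and Irx2 were named after their values were seen. The members, lists, rules and thresholds were chosen with earlier results of these data known. No molecular identifiers are named in the labels, so intervals and floors cover counting error only.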

Additional observations from a re-analysis of the deposited data

Results flagged for a closer look

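In 5 of the 136 sets of 4 mice examined, 1 mouse lay far from the 3 others of its group; chance gives about 1 in 20. Foxj1 was highest in BACHD+Con mouse 2 (20.81 CPM) and in Con+Con mouse 1 (29.21 CPM), which also had the highest choroid plexus and ependymal marker sums of their groups (10750 and 7560 CPM). Dlx6 was lowest in Con+Con mouse 3 (9.966 CPM), the mouse that also decided the Six3 result. Gata2 had no read in BACHD+Foxp2 mouse 3 (0 CPM), against 3.66 to 3.93 CPM in the 3 other mice of that group. Dlx2 was lowest in Con+Foxp2 mouse 3 (3.315 CPM), against 10.9 to 11.45 CPM in the 3 others.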

How the results depend on the processing

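No member was called under any alternative setting that was run, with 2 exceptions: without Con+Con mouse 3 the virus in control mice and the virus averaged over genotypes each called 1 member, Six3 (range 0 to 1 over leaving out each library in turn). With the 8 left-out genes counted in, an alternative chosen after seeing the data, the virus called 5 in control mice, 2 in BACHD mice and 4 averaged over genotypes. The number of members gaining reads in control mice was 4 with 0 reads required in Con+Con, and 1 (Hoxc4) with at least 20 reads in all 4 libraries. It was 14 with at least 6 reads in 2 libraries, and 6 to 9 when a library was left out. Over all gene rows 51, 34 and 502 met these settings in that order, and 192 to 256 with a library left out. In the opposite direction the same settings gave 0, 0 and 2 members, beside 11, 4 and 307 gene rows. In BACHD mice the number gaining reads was 0 with at least 20 reads, 7 with at least 6 reads and 4 with the left-out genes. When a library was left out it was 1 to 4 (2 without BACHD+Con mouse 1, 3 without BACHD+Foxp2 mouse 1, 2 or 4, and 4 without mouse 3). Over all gene rows 27 and 410 met the settings of 20 and 6 reads, and 171 to 214 with a library left out. In the opposite direction 1 and 2 members met those settings, beside 10 and 347 gene rows. The difference in members with reads in control mice was 4.258 at 3 reads. Of 21 results for named genes none changed direction. The same replicate numbers occur in every group, and the labels do not say whether they pair the samples. Same-numbered libraries correlated at -0.168 to 0.102 and 1 library was closest to its own number. Such values show no clear pairing but cannot exclude one. With the replicate block 0 members were called in every contrast, and of all genes 21 were called in control mice and 22 in BACHD mice, against 31 and 33 without it. Without the filter on low counts 75 and 53 of all genes were called, and with DESeq2 74 and 61. Hoxc4, with 24 reads in Con+Foxp2 and 0 in Con+Con mice, did not pass at this depth (edgeR adjusted p = 0.367 without the filter).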
